A study of Mus musculus with 8 samples.

Results

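The Cadm genes encode cell adhesion molecules of the immunoglobulin superfamily, also called nectin-like molecules or SynCAMs. All 15 probe sets whose symbol in the deposited table is Cadm1, Cadm2, Cadm3 or Cadm4 were taken, of 45037 on the array: 4 for Cadm1, 7 for Cadm2, 3 for Cadm3 and 1 for Cadm4. A probe set is a group of short probes that together read a transcript. The samples were 8 pieces of mouse tibial plateau, articular cartilage with the subchondral bone beneath it, each measured on its own array. Wild-type C57BL/6 mice gave 4 samples and ANP32A KO mice, which lack the acidic leucine-rich nuclear phosphoprotein Anp32a, gave 4, all at 8 weeks of age and with no treatment. The labels give no strain for the knockout mice and do not say whether littermates were used. Nothing in the labels says how the Anp32a allele was made or in which cells it is lost, and the deposited table numbers the samples as mouse 1 to mouse 4 of each genotype.

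Cadm proteins sit in the membrane and bind each other, or relatives, on the neighbouring cell without calcium. Their short cytoplasmic tails bind scaffold proteins of the Epb41 family and of the membrane-associated guanylate kinase family, which tie the contact to the actin skeleton. Cadm1 is best known as a tumour suppressor of epithelia, as a synaptic adhesion molecule, as the molecule by which mast cells adhere to fibroblasts, and as a surface marker of a class of dendritic cells. Cadm2 and Cadm3 are mainly known from the nervous system, and Cadm4 from the myelinating Schwann cell, where it binds Cadm3 on the axon. The comparison asks how the family was expressed in joint tissue with and without Anp32a.

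The genotype and tissue of the labels were checked first. Values are log2 RMA signals, as deposited, and means carry the SD over 4 arrays. Anp32a probe set 1450407_a_at averaged 9.88 ± 0.08 over the wild types, present on 4 of 4, and 4.60 ± 0.49 over the knockouts, present on 0 of 4, while 1434555_at and 1421918_at stayed present on all 8 arrays at differences of -0.51 and -0.45. Between 57.6% and 60.1% of an array's probe sets were called present, that is, above background. All 13 chondrocyte genes listed, such as Col2a1 and Prg4, were present on at least 4 arrays, and so were all 10 skeletal muscle genes and all 10 osteoclast genes, so the dissected piece held more than cartilage. Knockout 2 and knockout 3 stood apart on the first principal component, at 44.0 and 44.5, against -36.7 to 11.3 for the other 6 arrays. The Cadm1 and Cadm4 differences are given below also without them. In such bulk samples, fewer cells of a type and less RNA per cell cannot be told apart.

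Cadm1 was the member of the family with clear signal, and it read higher in the knockout by all 4 of its probe sets. Cadm1 was chosen for study because of this difference, so its values are given as a description, and its place among the probe sets called is what chose it, not support for it. All 32 detection calls of Cadm1 (4 probe sets on 8 arrays) were present. The brightest probe set, 1417378_at, read 10.66, 10.65, 10.43 and 10.60 in wild type 1 to 4 and 11.19, 11.52, 11.52 and 11.23 in knockout 1 to 4. Every knockout array lay above every wild-type array, with a gap of 0.53 between the groups. The means were 10.58 ± 0.11 and 11.36 ± 0.18, a difference of 0.78 ± 0.10 on the log2 scale (SE) or 1.72-fold.

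The other probe sets of Cadm1 showed the same arrays high and low. Probe set 1417377_at read 9.82, 9.89, 9.62 and 9.69 in wild type against 10.26, 10.68, 10.68 and 10.48 in knockout, a difference of 0.77 ± 0.11 (SE). Probe set 1417376_a_at read 9.82, 9.70, 9.53 and 9.51 against 10.14, 10.65, 10.63 and 10.33, a difference of 0.80 ± 0.12 (SE). In both, the groups again stood apart, by 0.37 and 0.32. The dimmest probe set, 1431611_a_at, read 7.91, 7.94, 7.70 and 7.48 against 7.95, 8.39, 8.35 and 8.23, a smaller difference of 0.48 ± 0.13 (SE) or 1.39-fold. Here knockout 1 and wild type 2 were all but level, and the groups were parted by 0.01.

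**Figure D1:**
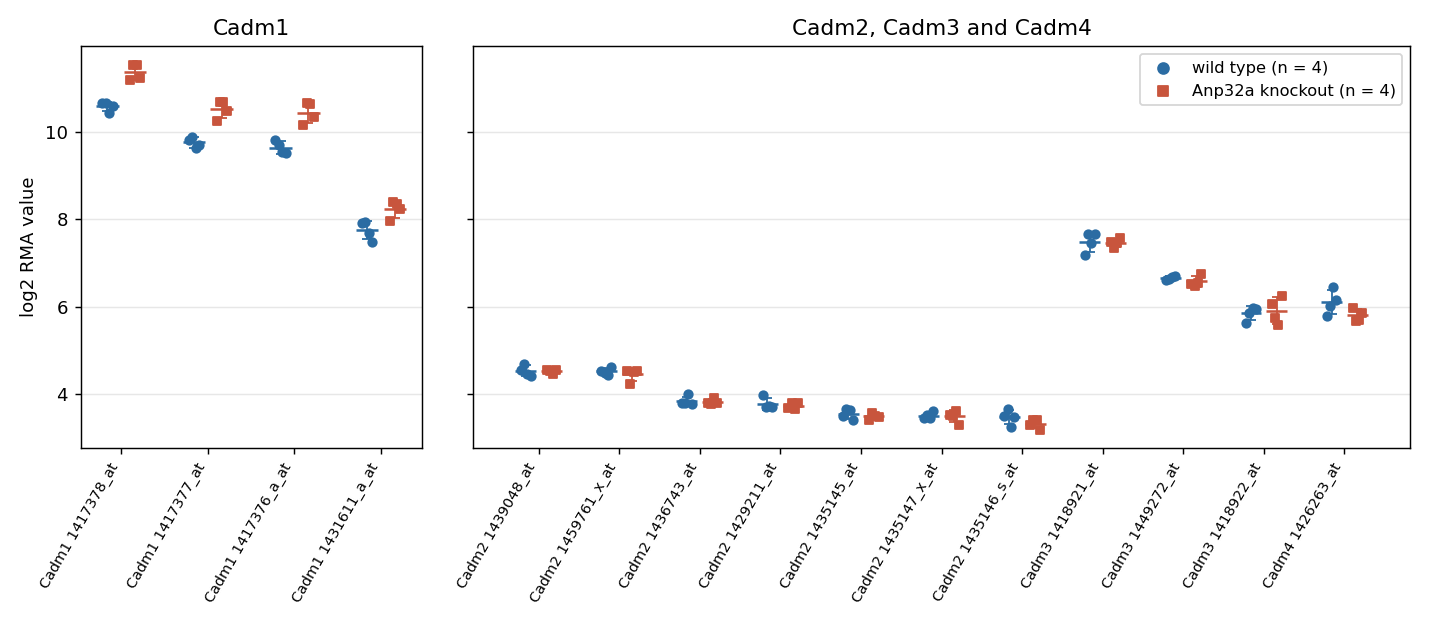
Log2 RMA value (y axis) of each of the 15 Cadm probe sets (x axis) on the 4 wild-type arrays (circles) and the 4 Anp32a knockout arrays (squares), with group mean and SD. The 4 Cadm1 probe sets are parted by genotype, by 0.53 in the brightest and 0.01 in the dimmest, and the groups of the other 11 overlap.

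Over the 8 arrays the Cadm1 probe sets followed each other. After each probe set was centred on its mean over the 8 arrays, the 3 brighter ones differed from each other by a root mean square of 0.06 to 0.08 log2 units, and by no more than 0.15 on any array. Probe set 1431611_a_at lay 0.17 to 0.20 from them by the same measure. The measure includes the difference between genotypes, which was smaller in 1431611_a_at. Within a genotype, too, the order of the arrays was largely shared. In all 4 probe sets wild type 1 and wild type 2 read above wild type 3 and wild type 4, and knockout 2 and knockout 3 read above knockout 4, which read above knockout 1. The mean of the 4 probe sets exceeded the wild-type mean by 0.45 in knockout 1, 0.88 in knockout 2, 0.86 in knockout 3 and 0.64 in knockout 4. With knockout 2 and knockout 3 left out, the difference was 0.63 in 1417378_at, 0.61 in 1417377_at, 0.60 in 1417376_a_at and 0.34 in 1431611_a_at. Among all 45037 probe sets, 551 had a larger absolute difference between the genotypes than 1417378_at, and 1891 than 1431611_a_at.

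Cadm4, the Schwann cell member, has a single probe set here, 1426263_at, and was present or marginal on all 8 arrays. It read 5.80, 6.02, 6.46 and 6.17 in wild type and 5.98, 5.67, 5.70 and 5.87 in knockout. Knockout 2 and knockout 3 lay below all wild types, while knockout 1 and knockout 4 lay above wild type 1, so the groups overlapped. The difference was -0.31 (95% interval -0.61 to -0.01), opposite in sign to that of Cadm1, and it did not pass (limma adjusted p = 0.263). It was -0.19 without wild type 3 alone, -0.19 without knockout 2 and knockout 3, and -0.41 without wild type 1.

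Cadm3, the axonal member, was at the edge of detection. Of its 24 detection calls 1 was present, that of wild type 4 in probe set 1418922_at, and 2 were marginal. Probe set 1418922_at read 5.64, 5.85, 5.97 and 5.96 in wild type and 6.07, 5.76, 5.58 and 6.25 in knockout, with the knockout arrays on both sides of the wild types. Probe sets 1418921_at and 1449272_at were absent on all 8 arrays, with values of 7.18 to 7.66 and 6.48 to 6.76, so their values lie below the level of detection and no fold is given for them.

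Cadm2, a synaptic member, was likewise near background, with 10 present and 4 marginal calls among 56. Its 7 probe sets read between 3.20 and 4.71 on every array, and the present calls were 5 in wild type and 5 in knockout. The probe set most often called present, 1429211_at, read 3.99, 3.71, 3.74 and 3.72 in wild type and 3.69, 3.81, 3.66 and 3.80 in knockout, a difference of -0.05 (95% interval -0.23 to 0.13). The groups overlapped, and the highest value, that of wild type 1, stood apart from the rest. Over the 4 Cadm2 probe sets with a present call the differences ran from -0.15 (1435146_s_at, 95% interval -0.35 to 0.06) to -0.01 (1439048_at, -0.17 to 0.16). Probe sets 1435146_s_at, 1435147_x_at and 1459761_x_at carry suffixes by which the maker marks probes that can also read other transcripts.

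Beside each other, then, the family members gave 1 probe set past an adjusted p of 0.05 (limma with Benjamini-Hochberg adjustment over all probe sets), the brightest of Cadm1, out of 15. Over the whole array 0.0533% of probe sets passed. The call was lost when any of the wild types, knockout 2 or knockout 3 was left out. The groups did not overlap in 4 of the 15, all Cadm1 and all higher in the knockout, against 4.35% of all probe sets in that direction, and since Cadm1 was chosen by this contrast, nothing is read from these shares. The median difference was 0.78 over the Cadm1 probe sets, -0.05 over those of Cadm2, -0.03 over those of Cadm3 and 0.01 over all probe sets. The Cadm2 and Cadm3 medians include the 5 probe sets with no present call. Only 6 of the 15 were present on at least 4 arrays: those of Cadm1, that of Cadm4 and Cadm2 1429211_at.

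**Figure D2:**
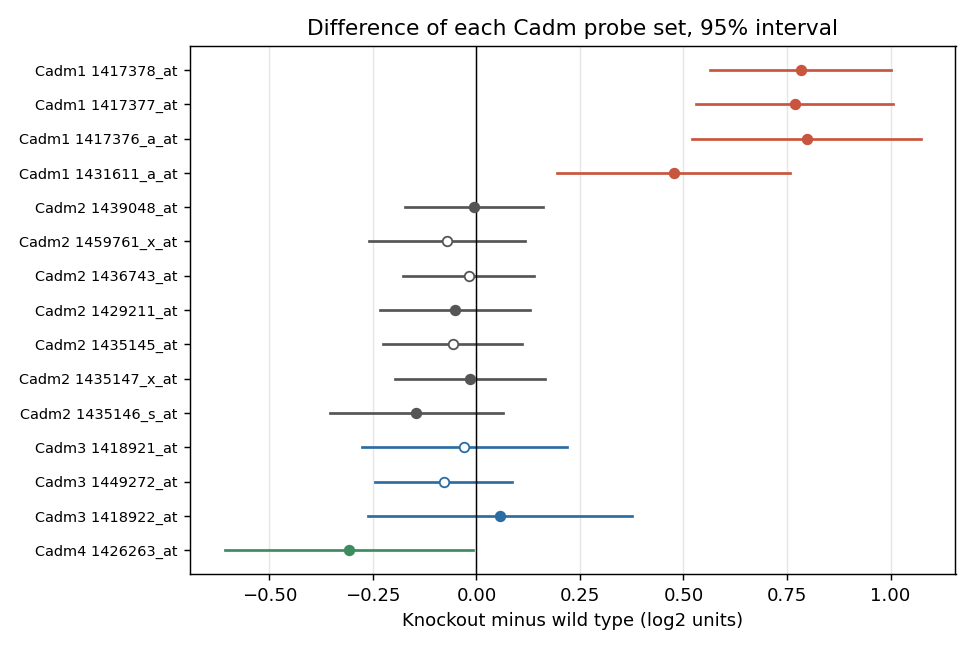
Knockout minus wild type difference in log2 units (x axis) of each Cadm probe set (y axis), with the 95% interval of the limma fit (n = 4 per group). Open circles mark the 5 probe sets with no present call on any array. The Cadm1 intervals lie above 0, Cadm4 at -0.31 lies below it, and all Cadm2 and Cadm3 intervals span 0.

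Relatives of the Cadm proteins, and binding partners of the Cadm proteins or of those relatives, were examined as 3 lists. These held 26 measured genes, each represented by its probe set of highest mean. None of the 26 passed (limma, adjusted over all probe sets and over all genes), and 3 had an unadjusted p under 0.05, where 19.4% of all genes did. Over all genes 0.0532% passed the adjusted threshold. The median difference of the 26 was 0.01, as was that of all genes. Among their 68 probe sets none passed either.

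Among the nectins and the poliovirus receptor Pvr, the adhesion molecules most closely related to the Cadm family, the differences of the 5 genes ran from -0.12 to 0.03. Pvr read 8.31 to 8.49 in wild type and 8.15 to 8.43 in knockout (difference -0.12, 95% interval -0.30 to 0.06). These values are of 1451160_s_at, whose suffix marks probes that can also read other transcripts. A dimmer Pvr probe set, 1423904_a_at, read 7.80 in wild type and 7.38 in knockout on average (-0.42, limma adjusted p = 0.13). Another dimmer one present on all arrays, 1423903_at, gave -0.13. Both read lower on every knockout array than on any wild type, by 0.25 and 0.007. So did 1423905_at (-0.20), which had no present call. The remaining Pvr probe sets overlapped. Such separation held for 5.42% of all genes by their probe set of highest mean. Nectin3, a ligand of the other nectins, gave -0.10 and Nectin2 0.03. Nectin1 and Nectin4 had no present call in any of their probe sets.

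Of the extracellular partners, the T cell receptor of Cadm1, Crtam, was absent on every array, and so were Cd96 and the integrin chain Itgb4. Cd226, which binds Pvr and Nectin2, was called present on 1 array. The receptor tyrosine kinase genes Erbb2 and Erbb3 and the integrin chain gene Itga6 were present on at least 4 arrays. Erbb3, the partner of Erbb2, read 7.14 to 7.79 in wild type and 7.22 to 7.68 in knockout (difference -0.10, 95% interval -0.43 to 0.24). None of the 7 genes had an unadjusted p under 0.05.

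The cytoplasmic partners held the widest differences of the 3 lists. Mpp3, a membrane-associated guanylate kinase known to bind Cadm1, read 7.81, 7.90, 8.25 and 8.29 in wild type and 7.79, 6.70, 7.02 and 7.56 in knockout. All knockout arrays lay below all wild types, knockout 1 by the least and knockout 2 and knockout 3 by the most. The difference was -0.79 ± 0.22 (SE), which did not pass (limma adjusted p = 0.148). Mpp6, of the same scaffold family, gave -0.31 (limma adjusted p = 0.161) with groups that did not overlap either, at 10.55 to 10.67 in wild type and 10.04 to 10.46 in knockout. The other Mpp6 probe sets, also present on all arrays, overlapped between the genotypes and gave -0.20 (1439263_at) and 0.04 (1441546_at). Such separation in the lower direction held for 5.42% of all genes.

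Tiam1, an exchange factor for the GTPase Rac that binds Cadm1, read 8.54 to 8.94 in wild type and 8.93 to 9.34 in knockout (0.37, limma adjusted p = 0.16), with knockout 4 just below wild type 2. Mpp1, an erythrocyte scaffold protein, gave 0.25 (limma adjusted p = 0.281). Epb41l3, an Epb41 family protein known to bind Cadm1, was present on all arrays and gave 0.07 (95% interval -0.12 to 0.26). The largest positive difference of the list was that of Epb41, the red cell protein, at 0.42 with an interval of -0.06 to 0.90. Without knockout 4, 3 of the 26 genes passed by at least 1 probe set, namely Tiam1, Epb41 and Pvr, in a fit that called 3579 probe sets in all.

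**Figure D3:**
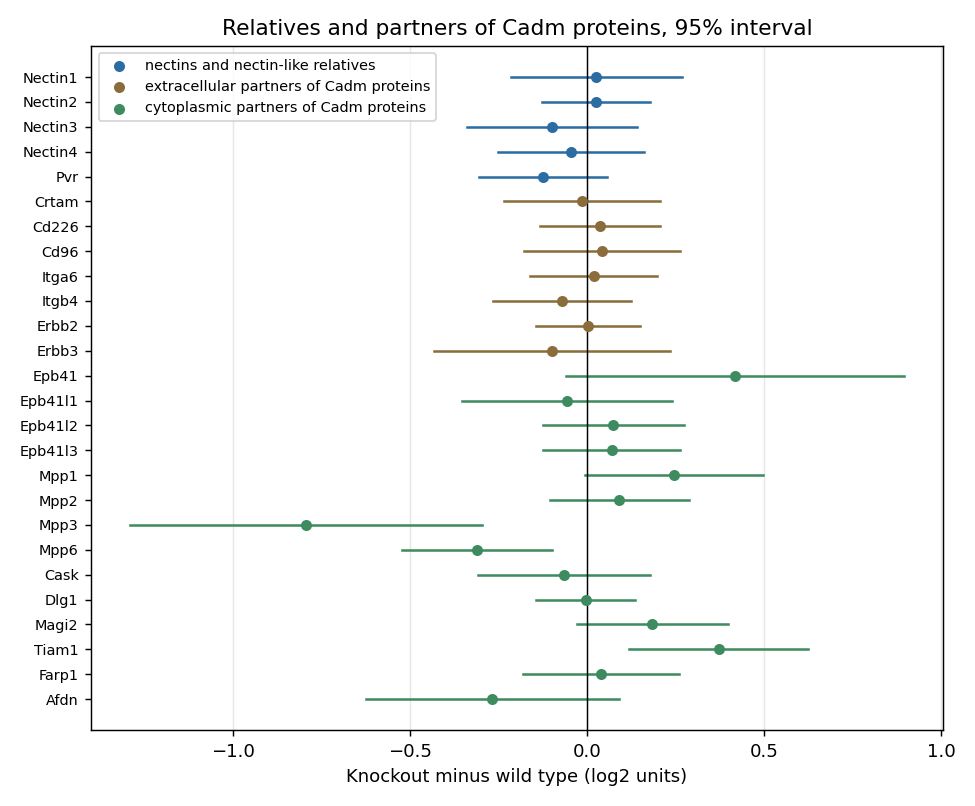
Knockout minus wild type difference in log2 units (x axis) of the 26 measured relatives of the Cadm proteins and partners of either (y axis). Each is shown by its probe set of highest mean, with 95% intervals (n = 4 per group). The intervals of Mpp3 at -0.79 and Mpp6 at -0.31 lie below 0, that of Tiam1 at 0.37 lies above it, and none of the 26 passed after adjustment.

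Cadm1 lies on chromosome 9, as Anp32a does, with Cadm3 on chromosome 1, Cadm4 on chromosome 7 and Cadm2 on chromosome 16 (RefSeq annotation of GRCm38.p6, used for gene order only, since the files name no build). Anp32a was the 158th measured gene after Cadm1 in that order. The 20 nearest measured genes, 10 on each side of Cadm1, were compared in the same way. Of these, 1 passed (limma adjusted p over all genes) and 5 had an unadjusted p under 0.05, 1 higher and 4 lower, against 19.4% of all genes. All 5 were on the side towards Anp32a, as counted by the probe set of highest mean. Dimmer probe sets of Sik3 and Zpr1 on the other side, named after their values were seen, read higher on every knockout array. They were 1441947_x_at (0.35, limma adjusted p = 0.136) and 1428294_at (0.16, limma adjusted p = 0.359). Such separation held for 4.35% of all probe sets. The brightest probe sets of Sik3 and Zpr1 overlapped between the genotypes, at 0.01 and -0.002.

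The gene that passed was the immediate neighbour Nxpe4, of the neurexophilin and PC-esterase domain family, and it read lower in the knockout where Cadm1 read higher. Its values were 9.14, 8.90, 8.96 and 9.03 in wild type and 8.17, 8.18, 7.97 and 7.69 in knockout (-1.01 ± 0.11 SE, adjusted p = 0.0133 from limma). The call was lost when any of the wild types was left out, or knockout 3, or knockout 2 and knockout 3 together. Every knockout array lay below every wild type, and knockout 4 was the lowest, unlike in Cadm1. The next genes on that side were Nxpe2 and the oligoribonuclease gene Rexo2, at 0.09. The probe sets of Nxpe2 disagreed: 1453220_at gave 0.35 (95% interval -0.46 to 1.16), while 1444471_at averaged 5.80 in wild type and 4.55 in knockout, lower on every knockout array (-1.26, limma adjusted p = 0.13). On the other side 2900052N01Rik, 4930448E22Rik and 4931429L15Rik gave differences of 0.08, -0.02 and -0.002, and none of them was present on more than 2 arrays.

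Gm5617, Nnmt and Zbtb16, named after their values were seen, are further genes on that side. Gm5617 read 8.09 to 8.39 in wild type and 8.41 to 8.89 in knockout, higher on every knockout array (0.40, limma adjusted p = 0.147). Nnmt and Zbtb16 both read lower on every knockout array than on any wild-type array. By the probe set of highest mean, 3 of the 20 neighbours (with Nxpe4) separated in that direction, against 5.42% of all genes. In the higher direction 1 of the 20 did, Gm5617, against 4.35% of all probe sets. Nnmt, nicotinamide N-methyltransferase, read 9.18 to 9.54 in wild type and 8.21 to 9.08 in knockout (-0.80, limma adjusted p = 0.13). Zbtb16, a transcription factor gene, read 9.09 to 9.26 and 7.91 to 9.04 (-0.70, limma adjusted p = 0.185), with knockout 2 and knockout 3 lowest. Without knockout 4, Nxpe4, Nxpe2, Nnmt and Zbtb16 all passed by at least 1 probe set.

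**Figure D4:**
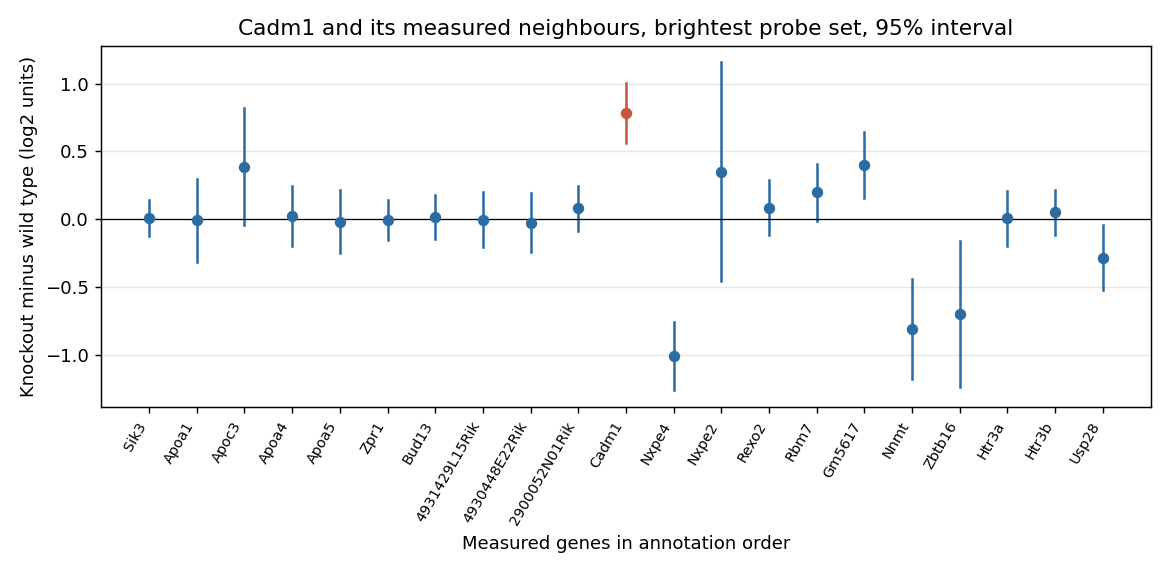
Knockout minus wild type difference in log2 units (y axis) of Cadm1 and of the 10 nearest measured genes on each side in annotation order (x axis), each by its probe set of highest mean, with 95% intervals (n = 4 per group). Cadm1 at 0.78 stands directly beside Nxpe4 at -1.01, and by these probe sets the genes before Cadm1 have intervals that span 0.

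The profiles most like that of the brightest Cadm1 probe set over the 8 arrays were sought among all genes present on at least 4 arrays, by the root mean square difference of centred log2 values. The closest was Gdpd2, a glycerophosphodiester phosphodiesterase gene, at 0.12 log2 units, followed by the neuropeptide gene Nmb and by Ppp2r1b, which encodes a subunit of a protein phosphatase, both at 0.13, then AI835735 at 0.13 and Wdr90 at 0.14. For scale, the Cadm1 probe sets 1417377_at and 1431611_a_at lay 0.06 and 0.20 from the same profile. The measure includes the difference between genotypes, so genes of like difference come first: that of Gdpd2 was 0.70 and that of Ppp2r1b 0.76. Ranks 6 to 10 were taken by Cd84, Atp6v0d2, Snx10, Ocstamp and Slc37a2, at 0.15 to 0.16, named after their values were seen. Atp6v0d2 and Ocstamp are on the osteoclast list below, while Cd84, Snx10 and Slc37a2 are on none of the lists.

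Markers of other cell types were compared on the same arrays, and no gene of any list passed (limma, adjusted over all genes). Over the 15 cell type lists, the list mean per array was higher on every knockout array than on every wild-type array for 4 lists (osteoblast and osteocyte, osteoclast, B cell, plasma cell), lower for skeletal muscle, and overlapping for the other 10. The osteoclast mean ran from 10.01 to 10.32 in wild type and from 10.43 to 10.84 in knockout, lowest in knockout 1 and highest in knockout 3. All 10 osteoclast genes had a difference above 0 and 8 had an unadjusted p under 0.05, against 10.1% of all genes in that direction. The most abundant, the acid phosphatase gene Acp5 and the protease gene Ctsk, gave 0.31 and 0.37, and none of the 10 passed. The part of these cells in the Cadm1 result was not tested.

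The mean of the 9 osteoblast and osteocyte genes ran from 11.11 to 11.27 in wild type and from 11.32 to 11.63 in knockout. Among the knockouts it was lowest in knockout 1, as Cadm1 and the osteoclast mean were, and highest in knockout 2. The most abundant members of this list, Ibsp and Col1a1, gave -0.01 and 0.19. Of the 9, 5 had an unadjusted p under 0.05, all higher, against 10.1% of all genes in that direction. The widest difference was 0.71, that of Phex. The B cell mean ran from 7.96 to 8.27 and from 8.32 to 9.03, with Ebf1 at 0.02 and Cd79b at 0.68. Of its 9 genes 5 had an unadjusted p under 0.05, all higher, against the same 10.1% of all genes. The plasma cell mean ran from 8.50 to 8.69 and from 8.83 to 9.32, with Xbp1 at -0.03 and Sdc1 at 0.24, and Tnfrsf17 was absent throughout. Of its 7 genes 4 had an unadjusted p under 0.05, all higher, again against 10.1% of all genes. Jchain, the joining chain of secreted antibodies, differed most, at 1.70. The muscle mean ran from 14.40 to 14.54 in wild type and from 13.16 to 14.36 in knockout, lowest in knockout 2 and knockout 3, with its most abundant members, Tnnc2 and Myl1, at -0.35 each. The differences of the list ran from -1.08, that of Myoz1, to -0.35, with a median of -0.56. All 10 muscle genes had an unadjusted p under 0.05 in the lower direction, as did 9.26% of all genes. The mean of the erythroid list, highest in knockout 1 and lowest in wild type 3, overlapped between the genotypes (8.45 to 9.87 and 9.17 to 10.49). Its median difference was nevertheless 0.82. Of its 9 genes 5 had an unadjusted p under 0.05, all higher, against 10.1% of all genes in that direction. The part of each of these lists in the Cadm1 result was not tested.

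**Figure D5:**
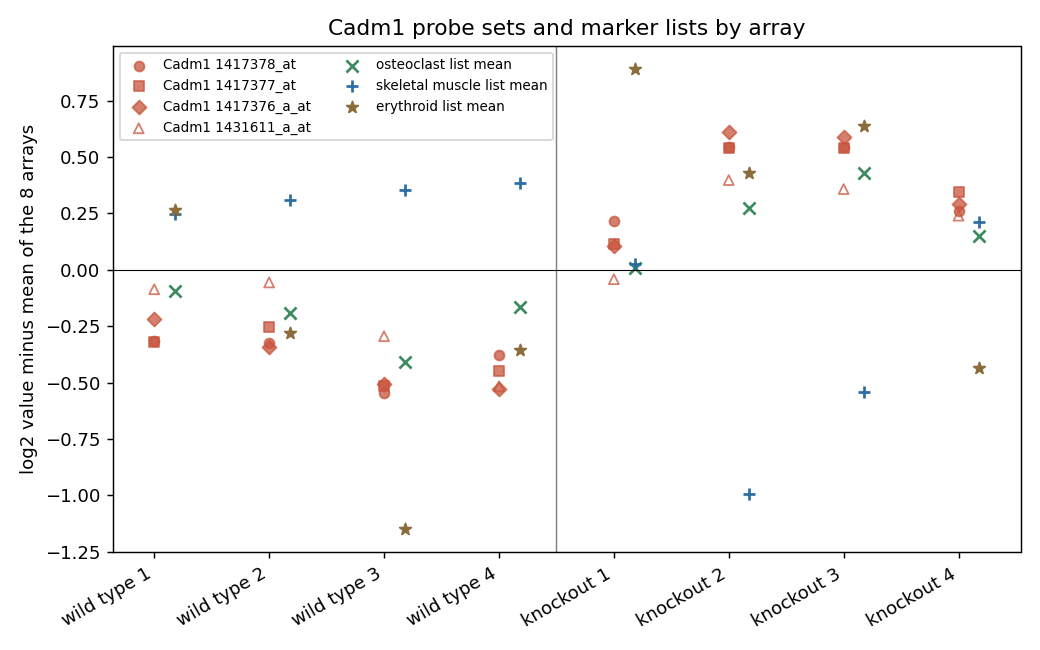
Log2 value minus the mean of the 8 arrays (y axis) for the 4 Cadm1 probe sets and for the means of the osteoclast, skeletal muscle and erythroid lists, by array (x axis; the vertical line parts the genotypes, and the order of arrays within a genotype has no meaning). Cadm1 and the osteoclast list are lowest in knockout 1 among the knockouts, and the muscle list is lowest in knockout 2 and knockout 3. The osteoblast and osteocyte list, not drawn, was also lowest in knockout 1 among the knockouts.

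For cell types of which Cadm proteins are known markers, the list means did not separate the genotypes. Of the 10 mast cell genes 6 were present on at least 4 arrays, and their list mean was 6.93 to 7.08 in wild type and 6.84 to 7.27 in knockout. The mast cell protease genes Mcpt4 and Tpsb2 had no present call, and the most abundant members, Hdc and Gata2, gave 0.24 and 0.18. The differences of the mast cell list ran from -0.24 to 0.45 with a median of 0.07, and 5 of the 10 were above 0. Of the 7 genes of type 1 dendritic cells, Xcr1, Itgae and Cd8a had no present call, while Irf8 and Wdfy4, which other blood cells also express, gave 0.43 and 0.57 (limma adjusted p = 0.29 and 0.147). The differences of the dendritic cell list ran from -0.10 to 0.57 with a median of 0.02, and 4 of the 7 were above 0. The mean of that list overlapped, at 7.11 to 7.21 and 7.13 to 7.48. Of the 7 genes 1 read higher on every knockout array than on any wild type, against 4.35% of all probe sets.

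For the nerve, where Cadm3 and Cadm4 meet, the Schwann cell list mean was 8.31 to 8.49 in wild type and 8.35 to 8.42 in knockout, and Sox10 and Mag had no present call. Its most abundant members, Pmp22 and the chondrocyte-expressed S100b, gave 0.01 and 0.16, and the differences of the list ran from -0.44 to 0.46. Of its 8 genes, 1 had an unadjusted p under 0.05 in the higher and 1 in the lower direction, against 10.1% and 9.26% of all genes. On every knockout array 2 of the 8 read lower than on any wild type, against 5.42% of all genes. The neuron list mean was 5.02 to 5.07 and 4.98 to 5.08, with 2 of its 8 genes present on at least 4 arrays. In that list 1 gene read higher and 1 lower on every knockout array, against 4.35% of all probe sets and 5.42% of all genes. The part of nerve tissue in the Cadm4 difference was not tested.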

How the data were processed

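RNA from 8 tibial plateau samples (4 wild type, 4 knockout, 1 Affymetrix array each) was compared. The values are log2 expression per probe set, made by the authors with RMA, per the submitters' processing notes, which corrects background, normalizes arrays to each other and summarises probes. The deposited table also held detection calls, gene symbols, and a log2 fold change, a p-value and an adjusted p-value per probe set from the authors' own comparison, whose test is not stated in the sources used here. The array design is not given there either. RMA draws low signals together, which can shrink differences of dim probe sets.

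Differences are knockout minus wild type from limma 3.58.1 (R 4.3.3), unpaired, fitted over all 45037 probe sets and tested on simulated data first, with Benjamini-Hochberg adjustment and a threshold of 0.05. Precision is set by how few arrays there are, 4 in each group. The columns of the deposited table name a mouse for each sample, 4 per genotype, so the p-values measure the spread between mice. No symbol was given for 6889 probe sets, 63 had a date or number in its place, and 64 rows of calls had no identifier. These were named nowhere. Partners, neighbours and markers were represented by the probe set of highest mean.

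Named are all Cadm probe sets, Anp32a, partner genes that passed and the 4 of smallest p per list, the 3 nearest neighbours on each side of Cadm1 and any that passed, the 5 closest profiles, and the 2 most abundant genes per cell type list. The lists also covered neutrophils (S100a9, S100a8), endothelium (Esam, Emcn), adipocytes (Car3, Fabp4) and epithelium (Epcam, Krt5), whose means overlapped between the genotypes, as did those of the erythroid list (Slc4a1, Ermap) and the neuron list (Stmn2, Uchl1). Values of some single marker genes are not reported here. The members and lists were chosen with earlier results of these data known. Gene order came from the RefSeq annotation of GRCm38.p6.

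Alternatives tried were gene-level values, median centring, quantile normalization again, a detection filter, array weights, a trended robust fit, the replicate block, and leaving out arrays.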

Additional observations from a re-analysis of the deposited data

Results flagged for a closer look

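Among 76 groups of 4 arrays (a genotype's values of a Cadm probe set or of a named partner, neighbour or closest profile), 6 held an array whose gap to the other 3 passed Dixon's critical value, and chance gives about 1 in 20. Of these, 4 were in Cadm2, at levels near background: wild type 1 at 3.99 in 1429211_at against 3.71 to 3.74 in the others, wild type 3 at 4.003 in 1436743_at against 3.78 to 3.81, knockout 3 at 3.92 in the same probe set against 3.79 to 3.81, and knockout 2 at 4.24 in 1459761_x_at against 4.52 to 4.54. Cd96, absent on all arrays, read 6.18 in knockout 3 and 5.94 to 5.97 in the other knockouts. Nectin3, present throughout, read 8.61 in knockout 1 and 8.99 to 9.03 in the others. No Cadm1, Cadm3 or Cadm4 group held such an array.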

How the results depend on the processing

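The brightest Cadm1 probe set stayed higher in the knockout under every setting run. Its difference of 0.78, by which Cadm1 was chosen, was 0.71 as the mean of all Cadm1 probe sets, 0.78 with a replicate block and 0.63 with knockout 2 and knockout 3 left out, a setting chosen after seeing the data. Leaving out 1 array gave 0.73 to 0.84. With that block its limma adjusted p was 0.106. Deviations of same-numbered arrays from their group means correlated at 0.07, 0.51, -0.34 and 0.30, and not every array correlated best with its own number. The labels state no pairing, and so few correlations cannot decide whether there was one. The count of Cadm probe sets called, 1, became 0 in those same 3 settings, 2 after quantile normalization again, with array weights or with a trended robust fit, and 0 to 3 with 1 array left out (3 without knockout 1 or knockout 4). Over all probe sets, 24 calls became 11 and 12 at gene level (brightest, mean), 41 with array weights, 7 without knockout 2 and knockout 3, and 9 to 3579 with 1 array left out, the highest without knockout 4. Partner genes called ran from 0 to 3 and neighbours from 0 to 4 over those fits (both highest without knockout 4), and neighbours fell to 0 without knockout 2 and knockout 3. Only Cadm2 and Cadm3 differences changed sign, all uncalled: Cadm2 1439048_at was 0.000315 with array weights, and without knockout 2 and knockout 3 it was 0.021, 1459761_x_at 0.010 and Cadm3 1418921_at 0.034. With 1 array left out the ranges were -0.042 to 0.050 for 1439048_at, -0.098 to 0.0041 for 1459761_x_at, -0.047 to 0.032 for 1436743_at, -0.078 to 0.016 for 1429211_at, -0.060 to 0.047 for 1435147_x_at, -0.13 to 0.028 for 1418921_at and -0.053 to 0.17 for 1418922_at. The cause was not tested. Signal near background limits Cadm2 and Cadm3.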
